A study of Rattus norvegicus with 24 samples.

Results

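Male rats that received 17β-estradiol, the main ovarian estrogen, at 10 µg/kg/day were compared with male rats that received 1 µg/kg/day, across all genes measured in the mammary gland. The arrays were taken by the sex and dose in the sample labels and by no measured value: 3 arrays at 10 (replicates 10, 11 and 12) and 3 arrays at 1 (replicates 7, 8 and 9), which are 6 of the 24 arrays of the series. The comparison does not use the arrays at 0 as a reference, and it separates responses that went on changing over the highest dose step from those that did not. All rats were of the Sprague-Dawley strain. Subcutaneous pumps infused estradiol between weaning, on postnatal day 21, and postnatal day 33, when the abdominal glands were frozen as pairs, so both groups are of the same age and differ by dose alone per the labels. Males at 0.1 µg/kg/day, and females at 10 and at 1 µg/kg/day, treated over the same days, are set beside them, with 3 arrays per group. Whether the 3 arrays of a group came from 3 different rats is not in the labels, so the p-values cover array-to-array spread, which may be technical.

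Estradiol acts through estrogen receptor alpha, a transcription factor that binds DNA when it holds the hormone. In the mammary gland the receptor sits in part of the luminal cells and in stroma, and the luminal cells answer with progesterone receptor and with amphiregulin, a growth factor that acts on neighbouring cells. The ducts lie in a fat pad, so a whole gland also holds adipocytes, vessels, nerves and mast cells.

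Values are signed log2 values that lie around 0 in each sex: the median of a probe set over the male arrays was within 0.139 of 0 for 95% of probe sets, so no absolute level is kept. A difference of 1 is a doubling if the logs are to base 2, which the sources used here do not state. For the same reason marker genes cannot show which cell types the glands held, only whether they differed between arrays. In a whole gland, fewer cells of a type and less RNA per cell cannot be told apart. The difference between the 3′ and 5′ beta-actin control probe sets, a measure of RNA quality and labelling, was -0.02, 0.16 and 0.05 in males at 10 and -0.24, -0.36 and -0.15 in males at 1, with no overlap. For the GAPDH controls it was 0.01, -0.06 and -0.02 at 10 and -0.06, -0.16 and -0.04 at 1. For hexokinase it was -0.12, 0.14 and 0.12 at 10 and -0.05, -0.22 and 0.06 at 1. Both of these overlapped between the doses. The mean of 17 hepatocyte genes was 1.26 in replicate 7 of the males at 1, against -0.16 and 0.21 in the other two arrays of that group, and lay between -0.26 and -0.14 in males at 10. The mean of 27 skeletal muscle genes varied within both groups, at 1.22, -1.06 and -1.95 in males at 10 and 0.84, 0.78 and -0.61 in males at 1. The part of RNA quality and of these tissues in the results was tested only by the covariate fits given with them.

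At 10 against 1, 55 of 31042 probe sets were higher (0.177%) and 65 were lower (0.209%), 120 in all (0.387%), by limma with Benjamini-Hochberg adjustment. They stood for 36 genes that rose and 50 that fell, and the rest had no gene or several in the annotation. The rises were the larger changes: 27 of the 55 exceeded 1 log2 unit, against 13 of the 65 falls. The groups did not overlap in any of the 120, which is likely for probe sets picked by a small p. Over all probe sets 9.25% were higher and 9.72% lower without overlap. Lack of overlap was also required of the 12 largest rises and falls named below. In a called gene a gap between the groups is thus no further support. Without adjustment, 2920 probe sets (9.41%) had a p under 0.05, 1234 higher and 1686 lower. The count rested on single arrays: it was 66, 36 and 34 without replicates 10, 11 and 12 of the males at 10, and 129, 27 and 19 without replicates 7, 8 and 9 of the males at 1. With the beta-actin difference as a covariate 14 probe sets passed, 11 of them among the 120. With the hepatocyte and muscle means as covariates 146 passed, 84 of them among the 120.

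**Figure D1:**
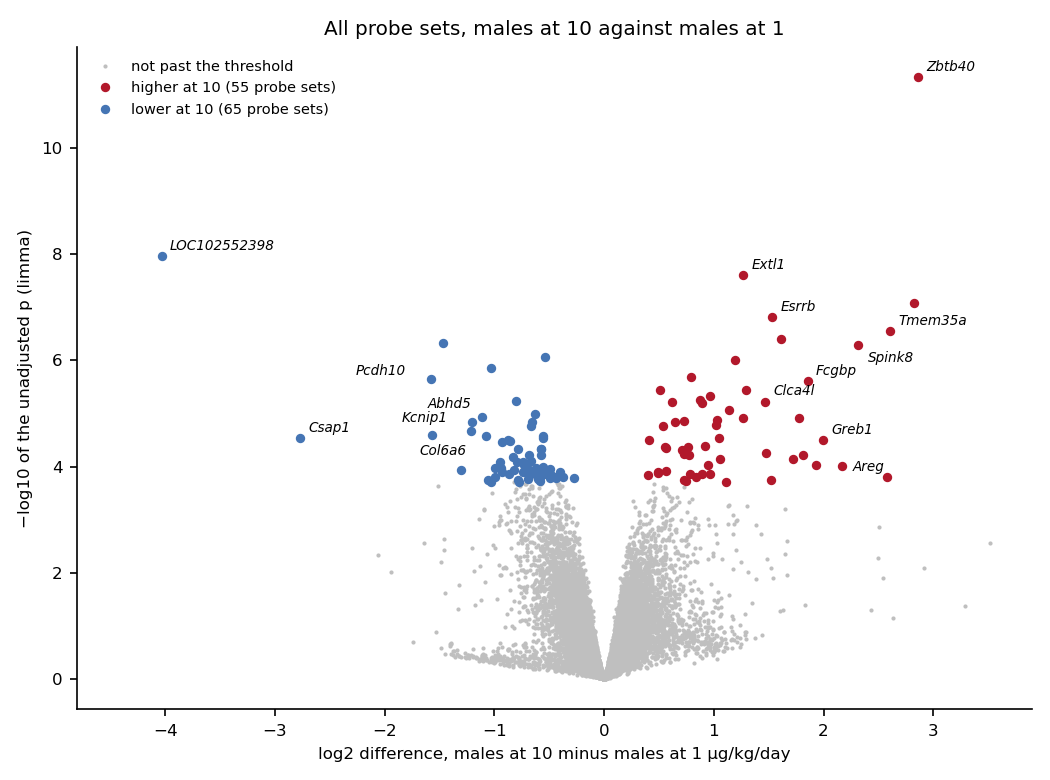
Each dot is a probe set, with the log2 difference of males at 10 minus males at 1 on the horizontal axis and the unadjusted limma p on a negative log10 scale on the vertical axis. The 55 coloured dots on the right were higher and the 65 on the left lower at 10; Zbtb40 stands highest and LOC102552398 farthest to the left.

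The rises with the smallest p came from genes whose differences at the step below were near 0. Zbtb40, a zinc finger protein of the BTB family, had values of 2.69, 3.32 and 2.47 in males at 10 and -0.01, -0.13 and 0.04 in males at 1. All arrays at 10 stood far above all arrays at 1. Zbtb40 rose by 2.86 ± 0.19 (SE), which is 7.25-fold, with an adjusted p of 1.43e-07 by limma. A second Zbtb40 probe set differed by only 0.08, so the rise was seen on 1 of 2 probe sets. Why the probe sets differ was not tested. Tmem35a, a chaperone of nicotinic acetylcholine receptors, had 2.78, 2.52 and 2.93 in males at 10 against 0.17, 0.16 and 0.07 in males at 1. Its 3 arrays at 10 lay close together, and it rose by 2.61 ± 0.34 (adjusted p = 0.00146, limma). Spink8, of the Kazal family of serine protease inhibitors, had 1.31, 2.32 and 2.496 in males at 10 against -0.42, -0.12 and -0.27 in males at 1, with replicate 10 the lowest of the arrays at 10. It rose by 2.31 ± 0.31 (adjusted p = 0.00179, limma). Esrrb, an orphan nuclear receptor of the estrogen-related family that does not bind estradiol, had 0.89, 1.41 and 1.31 in males at 10 against -0.35, -0.06 and -0.58 in males at 1. It rose by 1.54 ± 0.19 (adjusted p = 0.000952, limma), again with a clear gap between the groups.

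The other large rises were in genes of varied roles. Fcgbp, a mucin-like protein that binds the Fc part of IgG, rose by 1.86 ± 0.28, and a probe set shared with its relative Fcgbpl1 by 2.83. Aadat, an aminotransferase of lysine and kynurenine breakdown, rose by 1.93 ± 0.39, and Fibin, a secreted factor described in fin development of zebrafish, by 1.73 ± 0.34 on one probe set and 1.11 on the other. Clca4l, of the family of chloride channel regulators, rose by 1.46 ± 0.24. Extl1, a glycosyltransferase of heparan sulfate synthesis, had 1.28, 1.54 and 1.39 in males at 10 against 0.07, 0.14 and 0.19 in males at 1. Both groups were tight, and both of its probe sets rose, by 1.27 ± 0.14 (adjusted p = 0.000259, limma) and 0.96. Slc7a7, a subunit of a transporter of basic amino acids, rose by 0.89 ± 0.14. It was the only one of 23 transporters measured that passed (background over all genes 0.232% higher and 0.288% lower). Zbtb40, Extl1, Esrrb, Spink8, Tmem35a and Fcgbp kept their calls whichever of the 6 arrays was left out. Aadat and Fibin kept it only without replicate 10 at 10, Slc7a7 only without replicates 10 and 12 at 10 and replicate 7 at 1, and Clca4l lost it without replicate 11 at 10 and replicate 9 at 1. With the beta-actin covariate only Zbtb40, Extl1 and Esrrb among the named rises passed.

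The promoters of 3 rises that passed under all alternatives, and of Areg, are shown because estrogen receptor alpha binds a known DNA element. They run over 250 bases before and 50 after the gene start, on the strand of the gene, from RefSeq on GRCr8. Zbtb40 is at chr5:154567124-154567423 (minus strand), Extl1 at chr5:151872781-151873080 (minus strand), Esrrb at chr6:111738412-111738711 (plus strand) and Areg at chr14:17265592-17265891 (minus strand). Capitals mark GGTCA, the core of the element, or TGACC, the same letters on the other strand.
Zbtb40: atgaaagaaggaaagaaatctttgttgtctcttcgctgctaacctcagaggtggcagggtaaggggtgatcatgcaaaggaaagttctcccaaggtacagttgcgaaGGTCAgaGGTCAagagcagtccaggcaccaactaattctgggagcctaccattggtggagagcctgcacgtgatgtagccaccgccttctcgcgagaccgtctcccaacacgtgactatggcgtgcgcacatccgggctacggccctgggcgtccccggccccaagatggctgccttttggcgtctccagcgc
Extl1: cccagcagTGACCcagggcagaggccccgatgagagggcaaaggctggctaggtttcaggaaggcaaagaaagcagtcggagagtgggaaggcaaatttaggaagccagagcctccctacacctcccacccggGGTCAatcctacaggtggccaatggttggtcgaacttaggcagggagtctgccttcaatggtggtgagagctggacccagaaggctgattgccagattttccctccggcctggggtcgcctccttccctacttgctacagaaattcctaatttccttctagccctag
Esrrb: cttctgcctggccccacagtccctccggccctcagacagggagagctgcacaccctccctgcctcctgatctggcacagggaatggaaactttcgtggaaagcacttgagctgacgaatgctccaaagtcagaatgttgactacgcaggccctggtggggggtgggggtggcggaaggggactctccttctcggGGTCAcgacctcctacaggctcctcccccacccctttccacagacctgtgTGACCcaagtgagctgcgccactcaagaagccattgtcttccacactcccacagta
Areg: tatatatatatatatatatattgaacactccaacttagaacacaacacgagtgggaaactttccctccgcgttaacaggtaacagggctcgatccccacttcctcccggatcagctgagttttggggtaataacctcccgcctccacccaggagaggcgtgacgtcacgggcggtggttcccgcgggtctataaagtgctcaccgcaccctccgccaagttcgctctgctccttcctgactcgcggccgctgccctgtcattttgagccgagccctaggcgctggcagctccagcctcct
Zbtb40, Extl1 and Esrrb hold the core motif at 2 places each, and Areg holds none. Of the 12 largest rises 8 matched 1 promoter entry, of which 5 held the core at least once and 4 at 2 or more places. Of the 12 largest falls 7 matched 1 entry, of which 4 held it once and 0 more often. Over all 33469 promoters of the table, 40.5% held the core on either strand and 11.1% held it at 2 or more places. The full element, read as GGTCA, any 3 bases and TGACC, was in 0.0269% of all promoters and in none of these 15. A match is only a match of letters in this window.

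Of the genes that estrogen receptor alpha is known to induce, Areg and Greb1 rose and Pgr did not pass. Areg, which encodes amphiregulin, a ligand of the EGF receptor, had 3.02, 3.32 and 2.75 in males at 10 against 0.69, 0.71 and 1.19 in males at 1. It rose by 2.17 ± 0.44, which is 4.5-fold (adjusted p = 0.0415, limma). Greb1, a cofactor of estrogen receptor alpha, had 2.78, 2.52 and 2.30 in males at 10 against 0.32, 0.62 and 0.65 in males at 1, and rose by 1.999 ± 0.37 (adjusted p = 0.0217, limma). Neither gene overlapped between the doses, but a second Greb1 probe set differed by 0.04. Pgr, the progesterone receptor, had 1.65, 2.35 and 1.40 in males at 10 against 0.38, 0.75 and 0.74 in males at 1, a difference of 1.18 ± 0.32 that did not pass (adjusted p = 0.144, limma). Esr1, the receptor itself, had a difference of -0.13 ± 0.18 with overlapping groups (adjusted p = 0.886, limma). Of 27 estrogen receptor targets measured, 2 rose and 0 fell, with 14 above 0 and a median difference of 0.03, beside -0.01 over the 14217 genes, of which 0.232% rose. The median was -0.01 without replicate 7 at 1, -0.16 with the beta-actin covariate and -0.05 with the probe set of largest SD over all 24 arrays, where 1 of the 27 fell. That one is Cxcl12, a chemokine of stroma, with a fall of 0.55 on this probe set. Of 20 genes of EGF family ligands, receptors and feedback, Areg alone rose (background 0.232%). Areg and Greb1 lost the call without any one of the 6 arrays, with quantile normalization and with the beta-actin covariate, and their adjusted p over all alternatives reached 0.416 and 0.327.

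**Figure D2:**
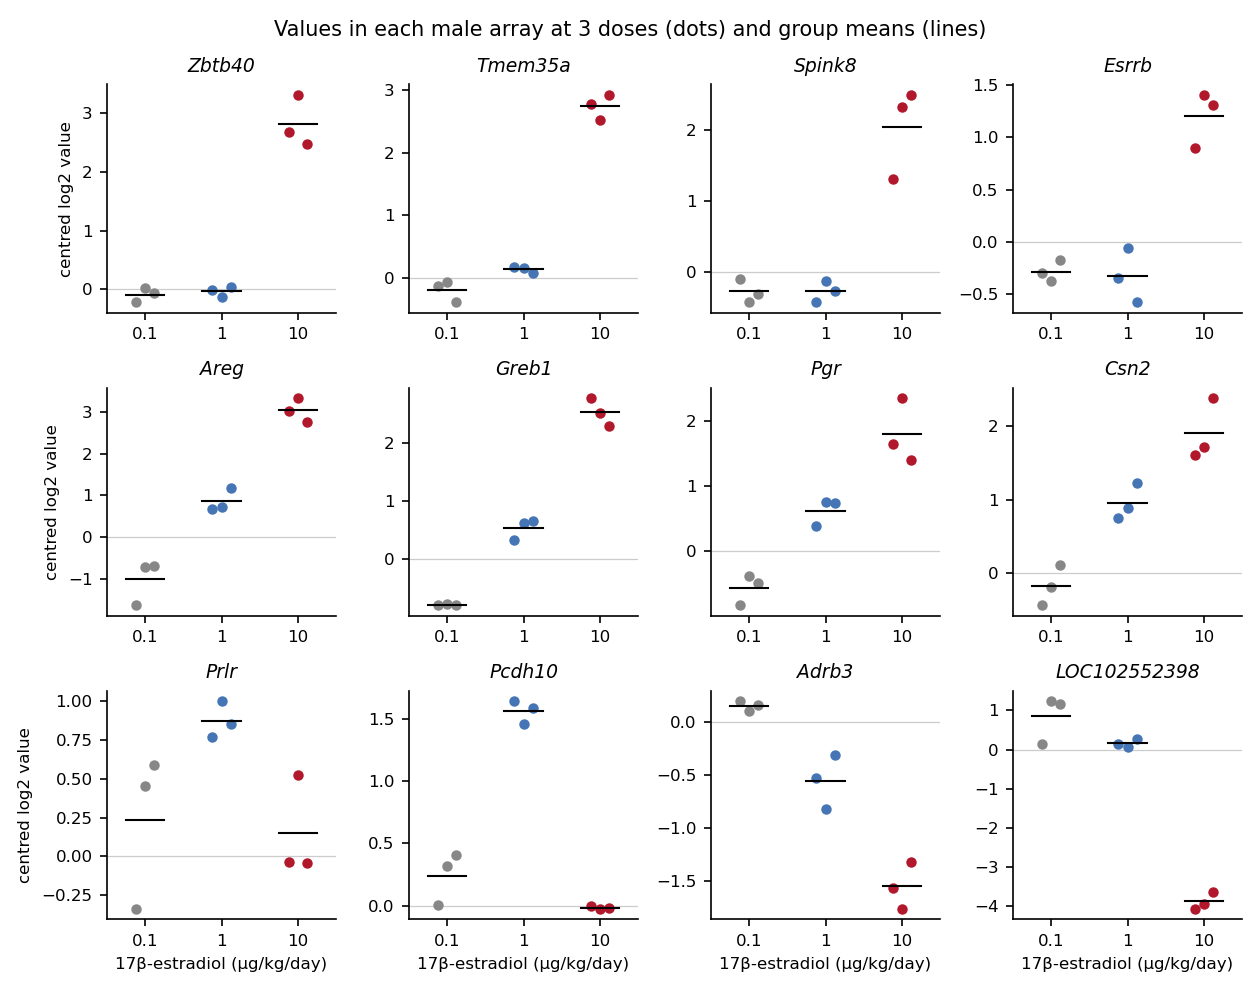
Dots are male arrays at 0.1, 1 and 10 µg/kg/day (grey, blue and red), lines are means of 3 arrays, and the vertical axis is the centred log2 value. Zbtb40, Tmem35a, Spink8 and Esrrb are flat and then high at 10, the means of Areg, Greb1 and Pgr are higher at each dose (not past the threshold at 1 against 0.1, nor for Pgr at 10 against 1), and Prlr and Pcdh10 are highest at 1.

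The step below, 1 against 0.1, was read beside this one to tell climbing from flat and from turning responses. Both steps use the 3 arrays at 1, so their values are given side by side. Areg had -1.62, -0.70 and -0.69 at 0.1, and its differences were 1.87 for 1 against 0.1 and 2.17 for 10 against 1. For Greb1 they were 1.33 and 1.999, and for Pgr 1.19 and 1.18. None of these 3 passed at 1 against 0.1. Csn2, the milk protein beta-casein, gave 1.13 and 0.95, neither of which passed (adjusted p = 0.777 at the upper step, limma). For these 4 genes the difference between the steps had intervals that include 0, which for Areg ran between -1.30 and 1.91 and for Pgr between -1.19 and 1.17. A difference between the steps was not detected in them, and the width of these intervals leaves room for steps that differ by over 1 log2 unit in at least one direction.

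Over all genes, 4 probe sets passed at 1 against 0.1 (0.0129%), all higher at 1, and 3 differed between the steps (0.00966%), 1 upward (0.00322%) and 2 downward (0.00644%), by limma with Benjamini-Hochberg adjustment. At an unadjusted p under 0.05 these counts were 1200 (3.87%) and 836 (2.69%). Zbtb40 differed between the steps by 2.80 (adjusted p = 0.00185, limma): its step was 0.06 at the lower doses and 2.86 at the higher ones. Pcdh10, a protocadherin of cell adhesion, was highest at 1: it had 0.00, 0.31 and 0.40 at 0.1, 1.64, 1.46 and 1.58 at 1, and -0.00, -0.03 and -0.02 at 10. Its groups at 10 and 1 lay apart with little spread in either. It fell by 1.58 ± 0.24 at 10 against 1 (adjusted p = 0.00492, limma) after a difference of 1.32 at the lower step (adjusted p = 0.085, limma), and the steps differed by -2.90 (adjusted p = 0.0102, limma). The third is an unnamed probe set with a step of 0.41 and then -0.54. Neither downward difference between the steps passed without replicate 8 of the males at 1, nor without replicate 9. Of the 4 probe sets that were higher at 1 than at 0.1, chosen for naming after their values were seen, 2 unnamed ones also rose at 10 against 1: one by 1.48 after 2.10 and the other by 1.81 after 2.84. The other two, 6330403K07Rikl with 0.78 after 1.40 and the remaining unnamed one with 0.81 after 1.57, did not pass at 10 against 1.

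The genes next in order for the difference between the steps had adjusted p-values of 0.417 and more and are given as values. Esrrb had steps of -0.05 and 1.54 and Spink8 of 0.00 and 2.31. Klra22, of the Ly49 family of natural killer cell receptors, had -0.25 and 0.54, and Fcgbpl1 had -0.20 and 0.62. In the other direction, Ggh, an enzyme of folate breakdown, had 0.31 and -0.65, Cxcl3, a neutrophil chemokine, 0.34 and -0.58, and Slc1a1, a glutamate transporter, 0.40 and -0.47. Another 4 Cxcl3 probe sets lay between -0.26 and -0.13 at the upper step. Of these genes, Esrrb, Spink8, Klra22 and Fcgbpl1 rose, and Ggh and Cxcl3 fell, at 10 against 1. Fcgbpl1 lost the call without replicate 9 at 1; Klra22 kept it only without replicate 10 at 10 or 7 at 1, Ggh only without 11 at 10 or 7 at 1, and Cxcl3 only without 12 at 10 or 7 at 1.

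The largest fall was that of LOC102552398, a locus without a described role in the sources used here. It had -4.07, -3.94 and -3.63 in males at 10 against 0.13, 0.06 and 0.26 in males at 1, a fall of 16.3-fold, by 4.03 ± 0.42 on the log2 scale (adjusted p = 0.000171, limma). The arrays at 10 lay far below all others. Csap1, common salivary protein 1, had -2.73, -1.65 and -2.87 in males at 10 against 0.16, 0.42 and 0.49 in males at 1, and fell by 2.77 ± 0.51 (adjusted p = 0.0212, limma). Tmem150c, a membrane protein, fell by 1.31, Kcnip1, which binds potassium channels, by 1.20, Hepacam2, of the immunoglobulin family of adhesion proteins, by 1.06, and Col6a6, a chain of collagen VI, by 1.08. Dusp1, a phosphatase that switches off MAP kinases, had -0.77, -0.72 and -0.96 in males at 10 against -0.25, 0.68 and 0.21 in males at 1, and fell by 1.03 ± 0.22 (adjusted p = 0.0499, limma), just inside the threshold. Among 22 immediate early genes, each read by 1 chosen probe set, Dusp1 alone fell (background 0.288%) and 0 rose, while another probe set of Jund, a component of AP-1, rose by 0.40. LOC102552398 and Pcdh10 kept the call whichever array was left out, Tmem150c lost it without any one of the 6, and Csap1 kept it only without replicate 11 at 10 or 7 at 1, Kcnip1 and Col6a6 only without replicate 10 at 10 or 7 at 1, Dusp1 only without replicate 7 at 1 and Hepacam2 only without replicate 11 at 10. The highest adjusted p over all alternatives for these 5 genes lay between 0.161 and 0.372. With the beta-actin covariate LOC102552398 and Pcdh10 alone among the named falls passed.

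Most fat cell genes lay lower, and 2 of those listed fell. Adrb3, the beta-3 adrenergic receptor that triggers lipolysis in fat, had -1.57, -1.76 and -1.32 in males at 10 against -0.54, -0.83 and -0.31 in males at 1. It fell by 0.99 ± 0.20 (adjusted p = 0.0429, limma) without overlap. Gpd1, which makes glycerol 3-phosphate for triglycerides, had -1.04, -1.49 and -1.19 in males at 10 against -0.22, -0.11 and -0.42 in males at 1, and fell by 0.99 ± 0.21 (adjusted p = 0.0461, limma). Abhd5, the activator of the lipase that starts lipolysis, is no member of the list and fell by 1.11 ± 0.19 (adjusted p = 0.0137, limma), a call lost without replicate 11 at 10, 8 at 1 or 9 at 1. Of 25 white adipocyte genes measured, 2 fell and 0 rose (background 0.288% and 0.232% of genes), 16 had an unadjusted p under 0.05 and lay lower (background 6.58%), and 23 were below 0, with a median of -0.50. Examples named after their values were seen are Fabp4, the fatty acid carrier of adipocytes, at -0.34, Lipe, hormone-sensitive lipase, at -0.64 (-0.03 on a second probe set) and Adipoq, the hormone adiponectin, at -0.48. The mean of the list was -0.66, -0.89 and -0.80 in males at 10 against -0.26, -0.26 and -0.37 in males at 1, so the groups did not overlap, and 19 of the 25 genes were lower without overlap (background 11.6%). At the step below the median was -0.34. None of the 25 passed without the arrays at dose 0, with quantile normalization, with the beta-actin covariate or without any single array of the 6. Adjusted p-values of Adrb3 and Gpd1 reached 0.328 and 0.401 (limma). In contrast, 7 fell with only the arrays of these 2 groups in the fit and 11 with array weights. Falls over all probe sets also grew, to 131 and 508 in these 2 fits, against 65 with neither change. The median of the list stayed between -0.59 and -0.33.

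Most genes of fatty acid oxidation in mitochondria and peroxisomes lay lower, with none past the threshold. Of 19 measured, 0 passed, 11 had an unadjusted p under 0.05 and lay lower (background 6.58%), and 17 were below 0, with a median of -0.31 beside -0.02 at the step below. Acaa2, the last enzyme of the mitochondrial cycle, had a difference of -0.57 ± 0.16 (adjusted p = 0.141, limma) and Eci2, an isomerase of unsaturated fatty acids, of -0.39 ± 0.13 (adjusted p = 0.264, limma). Of 14 genes of fatty acid synthesis and 12 of thermogenic fat, 0 passed, and their medians were -0.19 and -0.06. With the beta-actin covariate the median of the oxidation genes was -0.13. With array weights 3 of them fell, while falls over all probe sets numbered 508, against 65 without weights.

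Most genes of the mast cell and eosinophil list lay lower, and 2 of those listed fell. Hdc, the enzyme that makes histamine, had -0.56, -1.01 and -0.59 in males at 10 against 0.04, 0.22 and 0.14 in males at 1, and fell by 0.86 ± 0.16 (adjusted p = 0.0221, limma). Cpa3, carboxypeptidase of mast cell granules, had -0.59, -0.82 and -0.42 in males at 10 against 0.28, 0.16 and 0.05 in males at 1, and fell by 0.78 ± 0.17 (adjusted p = 0.0499, limma). The groups lay apart in both. Ms4a2, a chain of the IgE receptor, fell by 0.94 ± 0.19 on one probe set (adjusted p = 0.0372, limma) and had -0.59 on the other, which stands for it in the list. The Ms4a2 call was kept only without replicate 7 at 1. Of 18 mast cell and eosinophil genes measured, 2 fell (background 0.288%), 0 rose and 10 had an unadjusted p under 0.05 and lay lower (background 6.58%), with a median of -0.38 beside -0.04 at the step below. By sign 14 lay below 0 and 4 above, up to 0.51. Without overlap 9 were lower and 2 higher (background 11.6% and 8.56%). The mean of the list was -0.24, -0.34 and -0.14 in males at 10 against 0.08, 0.11 and 0.04 in males at 1. Cpa3 lost its call without any one array, and Hdc without replicates 11 and 12 at 10 and replicates 8 and 9 at 1. With the beta-actin covariate 0 of the 18 passed, and the median was -0.25. With array weights 6 of the 18 fell, while falls over all probe sets numbered 508, against 65 without weights.

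**Figure D3:**
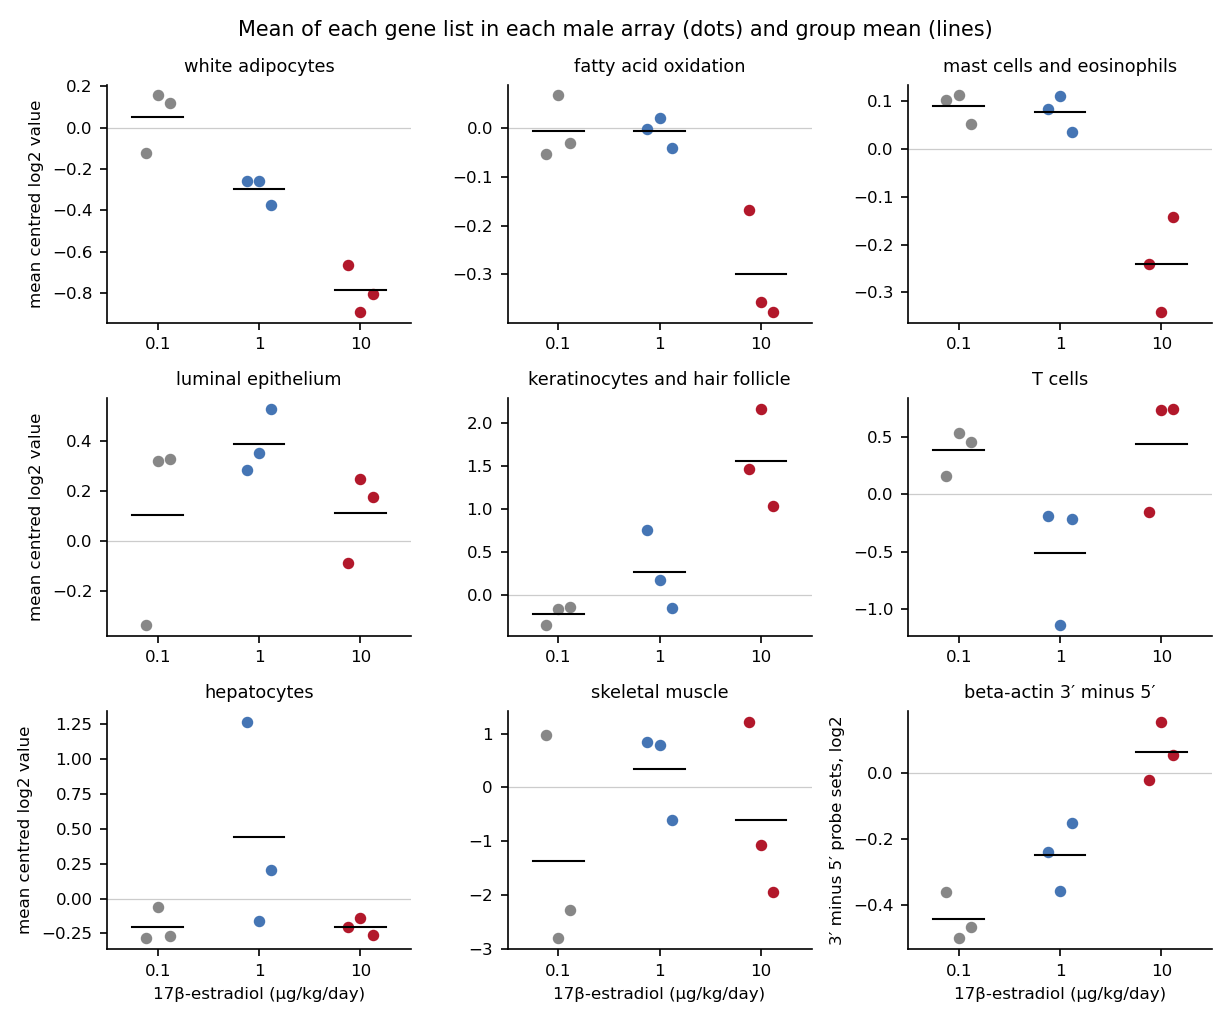
Each panel gives the mean centred log2 value of a gene list, or the beta-actin 3′ minus 5′ difference, in every male array at 0.1, 1 and 10 µg/kg/day, with lines for group means. White adipocyte, fatty acid oxidation and mast cell means are lower in all arrays at 10 than in all at 1, keratinocyte and beta-actin means are higher in all arrays at 10, and hepatocyte and muscle means vary between arrays of a group.

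Single genes of matrix, chemokines and pericytes passed. Col15a1, a basement membrane collagen, fell by 0.80 ± 0.16 and Cxcl14, a chemokine of fibroblasts and epithelium, by 0.93 ± 0.19. Rgs5, a marker of pericytes, fell by 0.44 ± 0.09. All 9 smooth muscle and pericyte genes lay below 0, of which Rgs5 alone passed (background over all genes 0.288% lower and 0.232% higher). Col12a1, a collagen that binds fibril surfaces, rose by 0.65 ± 0.11, after 0.44 at the step below, while its other two probe sets had 0.09 and -0.07. The 28 genes of collagens and stromal matrix had a median of -0.04, with Col12a1 and Col15a1 the only ones that passed (same background). Among 25 stromal growth factors 0 passed, while 9 lay lower and 2 higher at an unadjusted p under 0.05 (background 6.58% and 3.52%). Igfbp4 and Igfbp6, which bind insulin-like growth factors and were named after their values were seen, had 0.36 and 0.41. Among those lower, Igf1, a growth factor for ducts, had a difference of -0.79 ± 0.19 (adjusted p = 0.0885, limma) and Bmp4 one of -0.76 ± 0.18 (adjusted p = 0.0727, limma). Glul, which makes glutamine and answers to glucocorticoids, fell by 0.62 ± 0.13, the only one of 17 genes of its list that passed (background 0.288% lower). Rgs5 and Cxcl14 lost the call without any one array, Col15a1 and Glul kept it only without replicate 7 at 1, and Col12a1 lost it without replicate 12 at 10, 8 at 1 or 9 at 1. Their adjusted p over all alternatives reached 0.176 to 0.35, and none of these 5 passed with the beta-actin covariate.

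No luminal gene passed at this step. Of 26 luminal epithelial genes 0 passed and 23 lay below 0, with a median of -0.28, where the step below had given 0.29. The median was -0.14 without replicate 10 at 10, -0.18 without replicate 9 at 1 and -0.67 with the beta-actin covariate. Prlr, the prolactin receptor, had -0.03, 0.53 and -0.04 in males at 10 against 0.77, 1.00 and 0.85 in males at 1, a difference of -0.73 ± 0.29 that did not pass (adjusted p = 0.392, limma), after 0.64 at the step below. Krt7, a keratin of simple epithelia, had -0.61 after 0.81. The list means, -0.09, 0.25 and 0.18 in males at 10 and 0.28, 0.36 and 0.53 in males at 1, did not overlap, but each lay close to the next. In males at 0.1 they were -0.34, 0.32 and 0.33. Replicate 4 alone lay below the arrays at 1, and the others lay within their range. The median of 0.29 at the step below was not fitted without replicate 4, so no turn is read from it. Among 18 basal and myoepithelial genes 0 passed. Their median was -0.15, with 12 below 0 and 6 above, between -0.94 and 0.90. At an unadjusted p under 0.05, 4 lay lower and 2 higher (background 6.58% and 3.52%). The contractile genes Acta2 and Myh11 had differences of -0.72 ± 0.16 (adjusted p = 0.0528, limma) and -0.94 ± 0.24 (adjusted p = 0.114, limma). Of 33 cell cycle genes 0 passed and 0 reached an unadjusted p under 0.05, with a median of 0.04, and of 20 milk protein and secretion genes 0 passed, with a median of -0.15 that was 0.02 without replicate 10 at 10.

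Keratinocyte genes were the ones with the highest median, and 1 passed. Sbsn, suprabasin of the upper epidermis, had 1.12, 2.31 and 0.94 in males at 10 against 0.11, -0.24 and -0.05 in males at 1, and rose by 1.52 ± 0.33 (adjusted p = 0.0492, limma). Of 15 keratinocyte and hair follicle genes 1 rose, 10 had an unadjusted p under 0.05 and lay higher (background 3.52%), 5 were higher without overlap (background 8.56%) and 14 were above 0, with a median of 1.20 beside 0.19 at the step below. The mean of the list was 1.47, 2.17 and 1.04 in males at 10 against 0.75, 0.18 and -0.15 in males at 1, with replicate 11 at 10 the highest. Without that array the median was 0.59 and Sbsn did not pass, nor did Sbsn pass without any other one of the 6 arrays, with a robust variance prior or with the beta-actin covariate (adjusted p up to 0.386 over all alternatives). Without replicate 10 at 10, 4 of the 15 rose, while rises over all probe sets numbered 40, against 55 with all arrays. With hepatocyte, muscle, keratinocyte and T cell means as covariates, a setting added after seeing the data, the median was -0.09. The keratinocyte mean is itself a covariate there, so a median near 0 was fixed in advance and tells nothing. None of 15 T cell genes and none of 11 B cell genes passed by limma, and 0 reached an unadjusted p under 0.05; their medians were 1.00 and 0.79. In a fit of these 2 groups alone, 12 T cell and 6 B cell genes lay higher at an unadjusted p under 0.05. With array weights 11 and 3 did. The share of all genes at that level is not given for these 2 fits, so no background stands beside these counts. Past the threshold, rises over all probe sets numbered 84 and 337 in these fits, against 55 with neither change. Of the T cell genes 7 were higher without overlap (background 8.56%). The mean of the T cell genes was -0.16, 0.74 and 0.75 in males at 10 against -0.19, -1.14 and -0.21 in males at 1, with replicate 8 at 1 the lowest. With the beta-actin covariate the medians were -0.48 and -0.49, and without replicate 8 at 1 they were 0.71 and 0.48. The median was -0.68 for hepatocyte genes and -1.003 for skeletal muscle genes, and none of them passed by limma. The hepatocyte median was -0.19 without replicate 7 at 1, and the muscle median was -1.985 without replicate 10 at 10 and -0.40 without replicate 12 at 10.

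**Figure D4:**
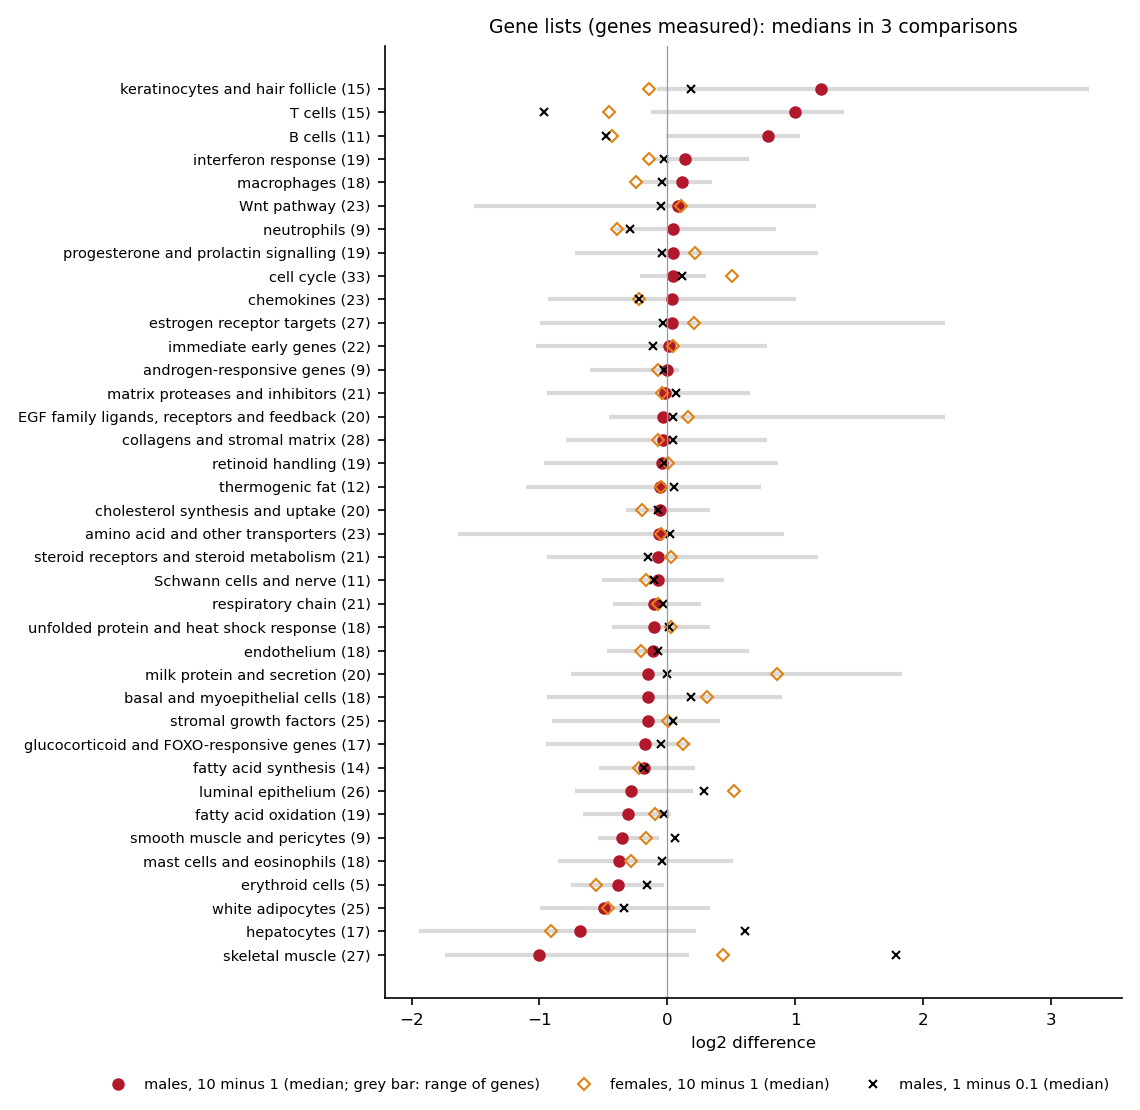
Gene lists, with the number of genes measured, are ordered by the median log2 difference of males at 10 minus males at 1 (red dots), with the range of genes as a grey bar, females at 10 minus 1 as diamonds and males at 1 minus 0.1 as crosses. Keratinocyte genes are highest at 1.20 and skeletal muscle genes lowest at -1.003; luminal genes lie at -0.28 in males and 0.52 in females.

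Females at 10 against 1 gave 83 probe sets (0.267%), 57 higher (0.184%) and 26 lower (0.0838%), by limma with Benjamini-Hochberg adjustment, and share no array with the males. Without adjustment 3136 had a p under 0.05 (10.1%). Of the 120 probe sets called in males, 14 were also called in females, which is 11.7% of the male and 16.9% of the female calls, and all 14 went the same way. The sign was the same in females for 103 of the 120 (85.8%), beside 52.7% of all probe sets, for 50 of the 55 rises and 53 of the 65 falls. Zbtb40 had 1.95 in females, Extl1 1.17, Clca4l 1.36 and Esrrb 0.94, all past the threshold, and so were the falls of Adrb3 (-1.11), Kcnip1 (-1.09) and Col6a6 (-0.99). Sbsn, Csap1 and Hepacam2 had -0.19, 0.47 and 0.01 in females. The test of the difference between the sexes itself passed for 0 probe sets, with a smallest adjusted p of 0.0623 and 2447 at an unadjusted p under 0.05, so no call in one sex is shown to be absent in the other. Among the genes with the smallest p in that test, Acta2 had -0.72 in males and 0.62 in females (adjusted p = 0.0623, limma), Cgnl1, a protein of tight junctions, -0.35 and 0.80, and Lpo, lactoperoxidase of milk, -0.32 and 1.14 (adjusted p = 0.0967, limma). Luminal genes had a median of -0.28 in males and 0.52 in females, milk genes -0.15 and 0.86, and cell cycle genes 0.04 and 0.51, and 15 of 26, 14 of 20 and 8 of 33 differed between the sexes at an unadjusted p under 0.05, with 7.88% of all probe sets as background. White adipocyte genes had -0.50 in males and -0.46 in females, and 1 of 25 differed at that level. That background counts probe sets, while the lists hold 1 chosen probe set per gene. The mean of the cell cycle genes was 0.72, 0.07 and -0.05 in females at 10 against 0.05, -0.26 and -0.38 in females at 1. These groups overlapped, and replicate 10 at 10 lay far above the rest. The female medians were not fitted without single arrays.

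**Figure D5:**
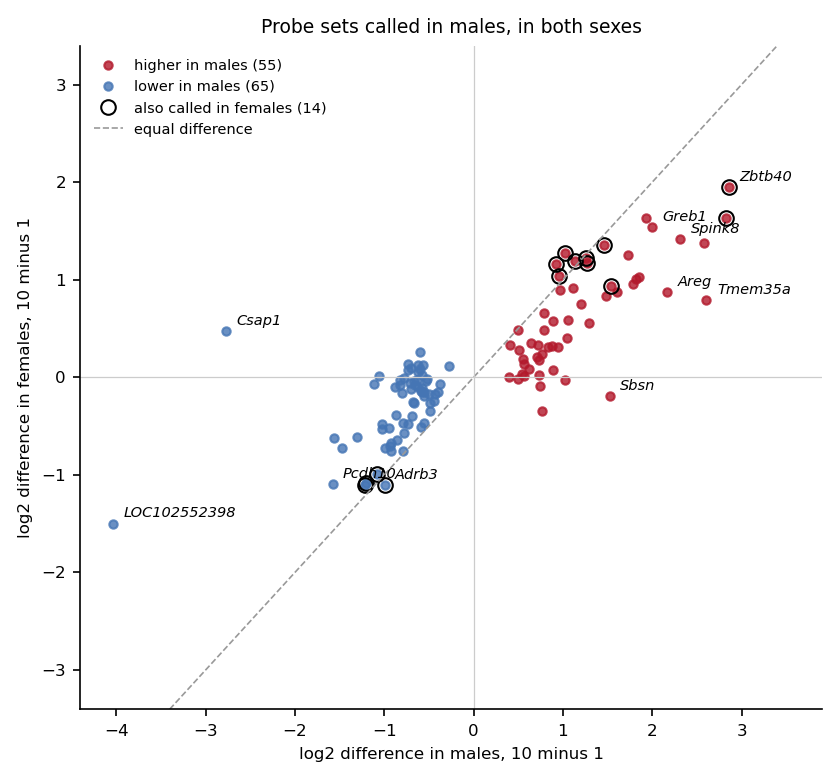
The 120 probe sets called in males, with their log2 difference at 10 minus 1 in males on the horizontal and in females on the vertical axis; circles mark the 14 called in both sexes and the dashed line marks equal differences. Most dots have the same sign in both sexes, and Csap1 and Sbsn do not.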

How the data were processed

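RNA from abdominal mammary glands was hybridised to Affymetrix arrays, per the labels' protocols. The deposited table holds signed log values, taken here as log2, for 31099 probe sets; GCOS is named per the submitters' processing notes, with no version. The sources used here do not name the summarization, the centring or the log base. Medians of probe sets over the male arrays had a median size of 0.0217, so values are read as relative within a sex. The number of arrays limits the precision.

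After 57 control probe sets were left out, 31042 were fitted with 8 group means over all 24 arrays (lmFit and eBayes, limma 3.58.1, R 4.3.3; 16 residual and 2.95 prior degrees of freedom) and adjusted by Benjamini-Hochberg, threshold 0.05. The fit was tested on simulated data. Contrasts were 10 minus 1 and 1 minus 0.1 in males, their difference, 10 minus 1 in females, and the male minus the female one. In the platform annotation, 20826 probe sets named 1 gene (14217 genes in all), 436 named several and 9780 had no name. In lists, a gene is represented by its probe set of largest SD about the sex mean over the 18 arrays outside males at 10 and 1. The members and the 38 lists were chosen with earlier results of these data known. Named are the 12 largest rises and falls past the threshold without overlap, up to 4 members of a list that passed or else up to 2 of smallest p, up to 10 genes of smallest p for the step and sex differences, and Esr1, Pgr, Prlr, Areg, Greb1 and Csn2; other genes were named after their values were seen. Alternatives varied the arrays in the fit, weights, variance prior, normalization, covariates, filters, replicate block and left-out arrays. Figures used matplotlib 3.10.9.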

Additional observations from a re-analysis of the deposited data

Results flagged for a closer look

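A test of the difference between the step of 10 over 1 and the step of 1 over 0.1 in males singled out 3 probe sets (limma, n = 3 arrays per group). Zbtb40 differed by 2.80, with no step at the lower doses and a rise at the highest one. Pcdh10 differed by -2.90, being higher at 1 than at either neighbouring dose. The step of Pcdh10 at 1 over 0.1 did not pass on its own. An unnamed probe set differed by -0.94, with an upward and then a downward step. Neither of these downward differences passed without replicate 8 of the males at 1, nor without replicate 9. The 3 arrays at 1 enter both steps with opposite sign. The causes were not tested.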

How the results depend on the processing

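For males at 10 against 1, the count of 120 probe sets was 215 with only the arrays of the groups compared, 77 without the 6 arrays at dose 0, 845 with array weights, 47 with quantile normalization, 14 with the beta-actin covariate, 40 at a change of at least 1 log2 unit, and 13 with 4 marker covariates (hepatocyte, muscle, keratinocyte and T cell), a setting added after seeing the data. Leaving out single arrays gave 19 to 129. Males at 1 against 0.1 gave 0 with only the groups compared, 40 with array weights, 17 with quantile normalization, 14 with hepatocyte and muscle covariates, 2 with the beta-actin covariate, 1 with probe sets of 1 gene, and 0 to 4 without single arrays. The difference between the steps gave 6 with array weights and 1 to 3 without single arrays. Females gave 1, 30, 166, 157, 130, 47 and 39 with only the groups compared, without dose 0, with array weights, quantile normalization, hepatocyte and muscle covariates, probe sets of 1 gene and at least 1 log2 unit, and 9 to 153 without single arrays. The sex difference, 0 as reported, gave 1, 22, 1 and 55 with only the groups compared, array weights, quantile normalization and hepatocyte and muscle covariates, 6 without the probe sets of smallest residual SD, and 0 to 14 without single arrays. None of the 36 named genes that were called changed sign. Medians of lists did. With the beta-actin covariate estrogen receptor targets had -0.16, T cells -0.48, B cells -0.49, thermogenic fat 0.44 and skeletal muscle 0.02. With the 4 marker covariates B cells had -0.25. Keratinocytes had -0.09 there, but their own mean is a covariate in that fit, which fixes a value near 0. The milk median was 0.02 without replicate 10 of the males at 10. The causes were not tested, and the beta-actin difference does not overlap between the doses, so dose and that difference cannot be told apart. Among the 36 named genes that were called, 8 were called in each fit without 1 of the 6 arrays, and 4 (Zbtb40, Extl1, Esrrb and LOC102552398) under all alternatives run. With hepatocyte and muscle covariates 27 of the 36 were called, and Adrb3, Gpd1, Cpa3, Dusp1, Sbsn, Col15a1, Glul, Rgs5 and Fibin were not. Males at 10 and at 1 share no replicate number, while males and females do. Same-numbered arrays of the sexes deviated together at some numbers and apart at others (correlations between -0.485 and 0.592). What a shared number stands for is not in the labels and was not tested. A random replicate block gave 117 probe sets in males and a fixed one 0 for the sex difference.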

Other observations

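Further genes that passed at 10 against 1 were named here after their values were seen. Rises included Rerg, an estrogen-regulated growth inhibitor of the Ras family, by 1.06 after 0.86 at the step below, and Cited4, a transcriptional coregulator, by 0.97 on one probe set beside 0.00 on the other. Msln, the surface protein mesothelin, rose by 1.26 and Asic2, an acid-sensing ion channel, by 1.03, and both also rose in females, by 1.22 and 1.27. Lpar1, a receptor of lysophosphatidic acid, rose by 0.49, and Wnt9a, a Wnt ligand, by the same 0.49, beside -0.02 in females.

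Falls among these further genes, also named after their values were seen, included some of vessels and fat. Results of the alternative fits are not given for any single gene named in this section. Gpihbp1, which anchors lipoprotein lipase to endothelium, fell by 0.81, Rbp7, a retinol-binding protein of endothelium and fat, by 0.83, Btnl9, of the butyrophilin family, by 0.70 and Mcam, an adhesion protein of vessels, by 0.79. Aoc3, an amine oxidase of adipocytes and vessels, fell by 0.74 and Car3, an abundant carbonic anhydrase of adipocytes, by 0.55. Of 18 endothelial genes listed 0 passed, with a median of -0.11, 12 below 0 and 6 above, up to 0.64. At an unadjusted p under 0.05, 3 of them lay lower and 2 higher (background 6.58% and 3.52%). A probe set for Cited1 and its relative Cited1l1 fell by 1.56 after a step of 0.52, with -0.62 in females.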
